A study of Homo sapiens with 6 samples.

Results

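The HOXB cluster holds the 10 genes HOXB1 to HOXB9 and HOXB13 on chromosome 17, and its transcripts were followed in human embryonic stem cells and in mesodermal progenitors made from them. Members were the probe sets annotated to 1 of these symbols alone. There were 19 such probe sets of 54675 in the table, and each of the 10 genes had at least 1. No probe set was annotated to a HOXB gene together with another gene. Both groups came from H9, an established line derived from a human embryo (hESC, for human embryonic stem cells), so that they share 1 genetic background. The hESC group was undifferentiated H9 cells, on 3 arrays. The progenitor group, on 3 arrays, was H9 cells cultured in Stemline II media with activin A, BMP4, FGF2 and VEGF and sorted on day 3.5 for lacking CD326 (EPCAM) and carrying CD56 (NCAM1). Unsorted cells of day 3.5 were not analysed here, so that the sort and the differentiation cannot be told apart. Nothing in the labels names separate cultures behind the 3 arrays of a group. The p-values thus reflect how far these arrays differ, and that spread may be technical. In bulk RNA, a higher share of cells with a transcript and more transcript per cell cannot be told apart.

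HOX genes encode transcription factors with a homeodomain, a DNA-binding fold, and they set the identity of body levels along the axis from head to tail. Within a cluster the genes lie in the order of the body levels they pattern, with the anterior genes at the 3′ end and the posterior genes at the 5′ end, and the anterior ones usually come on first as cells leave the primitive streak. In stem cells the clusters are held silent by Polycomb proteins, and retinoic acid, WNT and FGF signals and CDX factors open them.

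In RefSeq, on GRCh38.p14, the 10 genes span chr17:48528526-48728750, a stretch of 200.2 kb. HOXB1 to HOXB9 fill 97.8 kb of it. A gap of 98.4 kb separates HOXB9 from HOXB13, the most posterior member.

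Markers of the 2 labelled groups followed the labels. The array medians of the deposited intensity lay between 31.0 and 36.1, and r across probe sets was 0.985 to 0.996 within groups and 0.895 to 0.927 between them. Of all genes, on their brightest probe set, 25.3% were higher in the progenitors and 20% lower. All 6 hESC markers measured fell, or 5 with median centring or hybridization controls, and all 8 mesodermal progenitor markers rose. Of the 6 endothelial markers 3 rose and 3 did not pass, and of 5 endoderm markers 4 rose and 1 fell. Of 4 trophoblast markers 2 rose, TFAP2A by 4.19 and KRT7 by 2.01 in log2. The other 2, CGA and GCM1, did not pass and were at 9.09 or less on every array. Of the 3 blood markers and the 5 neural or neural crest markers 0 passed the test in limma. At an unadjusted p under 0.05, 1 blood marker was lower and 2 neural or neural crest markers higher. By that measure 5793 of 19775 genes were higher and 4567 lower. The level below which signal says little was gauged on 107 probe sets of olfactory receptor genes, whose 95th percentile lay between 32.3 and 37.6 on the 6 arrays. Probes differ in sequence, so that this level is only a rough yardstick.

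Transcripts of most HOXB genes were higher in the progenitors. Of its 19 probe sets 14 were higher in the progenitors and 0 were lower, where 40.2% of all 54613 probe sets tested passed, 20.3% higher and 20% lower (limma, adjusted p under 0.05 over all probe sets). At an unadjusted p under 0.05 the counts over the 19 were also 14 and 0, against 13114 higher and 12701 lower of all 54613. By gene, 9 of 10 rose on at least 1 probe set, and HOXB1 was the member that did not. For HOXB13 that probe set stayed below the yardstick on every array. Genes with several probe sets have more chances under this rule. On the brightest probe set of each gene, by the mean of all 6 arrays, 9 of 10 were higher too, where 25.3% of all genes were. Log2 changes of the 14 ran from 0.81 to 6.77, with a median of 2.49 over all 19 against 0.0065 over all probe sets. At least 8-fold increases on this scale were found for 6 of the 19 probe sets, against 0.78% of all. In the same 14 probe sets every progenitor array lay above every hESC array, a pattern that 26.1% of all probe sets showed. Changes are differences of mean log2(intensity + 16). Most hESC values lay under the olfactory receptor yardstick, where the added 16 makes this scale understate changes.

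**Figure D1:**
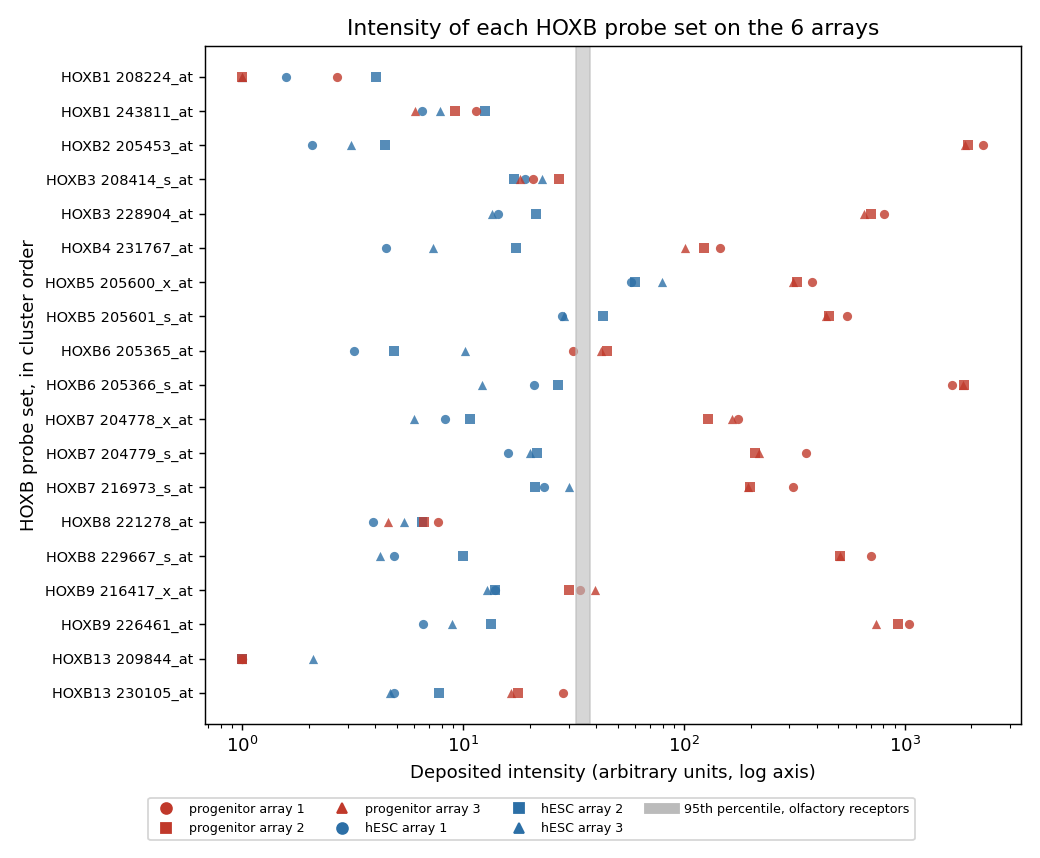
Deposited intensity (x axis, log scale, arbitrary units) of the 19 HOXB probe sets (y axis, in cluster order) on the 3 progenitor arrays and the 3 hESC arrays, 1 symbol per array, with the 95th percentile of olfactory receptor probe sets as a grey band from 32.3 to 37.6. In 14 rows the progenitor symbols lie all to the right of the hESC symbols, and only HOXB5 reaches or crosses the band in hESC.

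At the anterior end, HOXB1, the gene that gives rhombomere 4 of the hindbrain its identity, stayed at low signals in both groups. On 208224_at it was at intensities of 2.68, 1 and 1 on the progenitor arrays and of 1.57, 4.04 and 1 on the hESC arrays. On 243811_at it was at 11.4, 9.15 and 6.06 in the progenitors and at 6.48, 12.5 and 7.88 in hESC. The groups overlapped on both probe sets, and no array exceeded the olfactory receptor yardstick. The log2 changes were -0.041 (95% interval -0.27 to 0.19) and 0.052 (-0.24 to 0.34), with adjusted p = 0.792 and 0.789 in limma. These intervals are on a scale that compresses differences near the lowest signals.

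HOXB1 is the member whose upstream sequence was matched in the RefSeq promoter table, 1 of 10. The 250 bases before its start, at chr17:48531012-48531261 on the minus strand, are shown because this gene stayed dim while its neighbour rose the most, and capitals mark the match to TGATNNAT, a bipartite site of the kind that PBX and HOX proteins bind together and through which HOXB1 is known to act on itself.

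HOXB1 upstream: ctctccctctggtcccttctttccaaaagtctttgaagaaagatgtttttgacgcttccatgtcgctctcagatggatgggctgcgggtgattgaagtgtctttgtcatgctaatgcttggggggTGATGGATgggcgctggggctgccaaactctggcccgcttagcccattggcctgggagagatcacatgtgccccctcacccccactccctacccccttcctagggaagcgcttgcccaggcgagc

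This motif, chosen after the sequence was read, has 1 match in the 300-base window from 250 bases before to 50 after the start, searched on both strands, and 7.4% of 35116 promoter windows hold it. The CDX motifs TTTATG and TTTATT, which 10.6% and 17.4% of windows hold, had 0 matches, and so had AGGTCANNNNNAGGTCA, a direct repeat of the core site of retinoic acid receptors, which 2 windows hold. TTTATG and TTTATT share their first 5 bases. A match is a description of letters, not of binding.

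The next gene along the chromosome, HOXB2, stood at the other extreme. HOXB2, at chr17:48542655-48545109, helps to pattern the hindbrain behind the second rhombomere. Its intensity was 2269, 1928 and 1865 in the progenitors and 2.06, 4.43 and 3.10 in hESC. Every progenitor array lay far above every hESC array. The log2 change was 6.77 (SE 0.11, n = 3 per group, adjusted p = 1.698e-07 in limma). The mean of 2021 in the progenitors was 60.0 times the mean yardstick of 33.7 in hESC, a ratio that does not rest on the dim hESC values.

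HOXB3 and HOXB4, anterior genes of hindbrain and pharyngeal arches, rose as well. HOXB3 on 228904_at was at 803, 701 and 656 in the progenitors and at 14.4, 21.4 and 13.5 in hESC, a log2 change of 4.56 (SE 0.12, adjusted p = 8.084e-07). Its other probe set, 208414_s_at, gave 20.6, 27.3 and 18.0 against 19.1, 16.9 and 22.7, with overlapping groups and a change of 0.17 (adjusted p = 0.342). So the 2 probe sets of HOXB3 differed, and the one without a change stayed under the yardstick on all 6 arrays. RefSeq lists a HOXB3 gene of 41372 bases, chr17:48548870-48590241, which runs over HOXB4. HOXB4, known for expanding blood stem cells when it is added to them, was at 145, 124 and 101 in the progenitors and at 4.48, 17.3 and 7.26 in hESC. The groups were well apart, and the change was 2.49 (SE 0.19, adjusted p = 6.293e-05).

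HOXB5, which opens the central part of the cluster and is known from lung and enteric nerve development, had probe sets above the yardstick in hESC. On 205600_x_at it was at 381, 324 and 312 in the progenitors and at 57.4, 59.7 and 79.7 in hESC, above it on all 6 arrays, with a log2 change of 2.15 (SE 0.15, adjusted p = 4.672e-05). On 205601_s_at it was at 550, 454 and 438 against 28.1, 43.0 and 28.7, with a change of 3.39 (SE 0.14, adjusted p = 3.964e-06). Both rose, and their 95% intervals, 1.80 to 2.51 and 3.07 to 3.71, did not overlap. In this array design the ending _x_at marks probe sets with probes that can also match unrelated sequences, and _s_at those that can match several transcripts.

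HOXB6, an early gene of lateral plate mesoderm, rose on both of its probe sets. On 205366_s_at it was at 1640, 1850 and 1843 in the progenitors and at 20.9, 26.9 and 12.1 in hESC, a log2 change of 5.74 (SE 0.15, adjusted p = 8.019e-07). On 205365_at the values were 31.6, 44.6 and 42.2 against 3.19, 4.87 and 10.2, a change of 1.40 (SE 0.15, adjusted p = 0.0003374). The dimmer probe set rose too, but stayed near the yardstick, which it passed on 2 progenitor arrays. Both were lowest on progenitor array 1, the reverse of most members.

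HOXB7, expressed in the kidney duct, was measured by 3 probe sets that changed alike. Its 204779_s_at gave 356, 209 and 220 in the progenitors and 15.96, 21.7 and 20.1 in hESC. Its 216973_s_at gave 311, 199 and 196 against 23.1, 21.1 and 30.1, and 204778_x_at gave 175, 128 and 165 against 8.28, 10.8 and 6.01. The log2 changes were 2.96 (SE 0.19), 2.62 (SE 0.19) and 2.83 (SE 0.13), with adjusted p of 3.329e-05, 5.109e-05 and 6.323e-06, and their intervals overlapped. On all 3 probe sets progenitor array 1 was the highest.

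HOXB8, whose protein blocks the maturation of myeloid cells when it is forced on, rose on 1 of its 2 probe sets. On 229667_s_at it was at 702, 509 and 511 in the progenitors and at 4.84, 9.99 and 4.18 in hESC, a log2 change of 4.75 (SE 0.15, adjusted p = 1.823e-06). On 221278_at the values were 7.71, 6.61 and 4.55 against 3.92, 6.48 and 5.39, with overlapping groups and a change of 0.10 (adjusted p = 0.466). As for HOXB3, the probe set without a change was dim on all 6 arrays, and which stretch of the transcript each covers is not given in the sources used here.

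The posterior genes HOXB9 and HOXB13 parted. HOXB9, which shapes thoracic levels and ribs, was at 1046, 932 and 740 in the progenitors and at 6.59, 13.4 and 8.90 in hESC on 226461_at, a log2 change of 5.22 (SE 0.15, adjusted p = 1.249e-06). Its 216417_x_at was dimmer, at 33.8, 30.3 and 39.6 against 13.9, 13.9 and 12.8, and changed by 0.86 (SE 0.10, adjusted p = 0.0004474). Both HOXB9 probe sets rose, by very different amounts on this scale. HOXB13, a gene of the tail end and of the prostate, was at 28.2, 17.7 and 16.5 in the progenitors and at 4.87, 7.77 and 4.65 in hESC on 230105_at, and rose by 0.81 (SE 0.14, adjusted p = 0.003096). That probe set stayed below the yardstick on every array, so this increase was found at signals in the range of olfactory receptor probe sets. On 209844_at HOXB13 was at 1 on 5 arrays and at 2.08 on hESC array 3, with a change of -0.030 (adjusted p = 0.819).

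**Figure D2:**
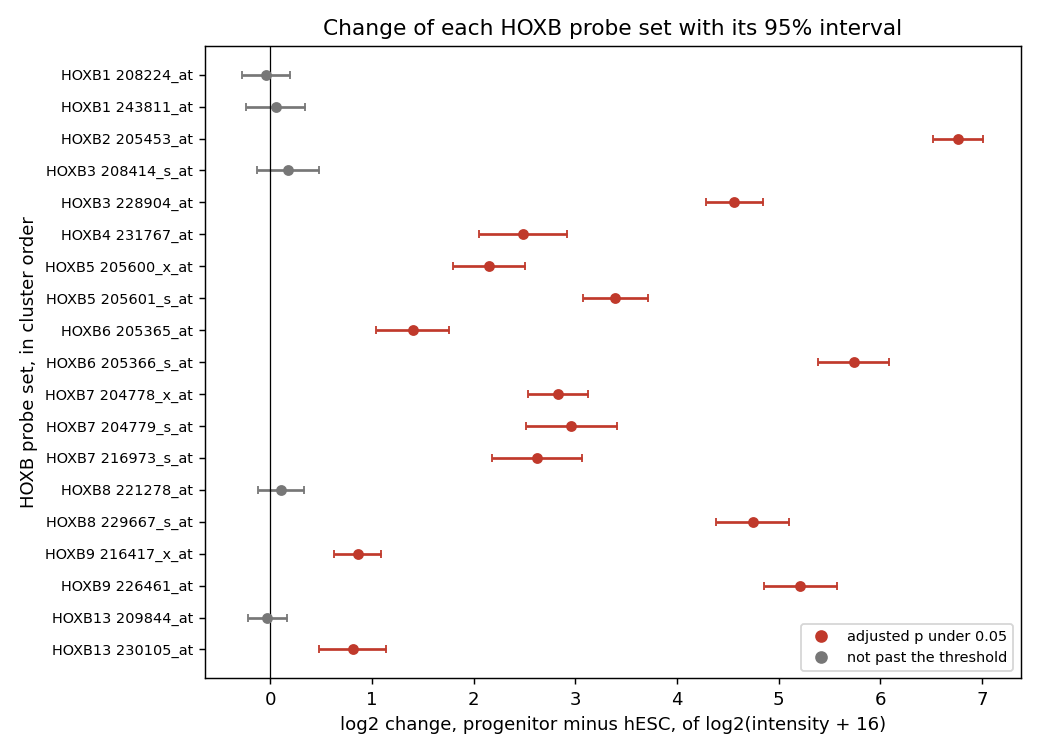
Log2 change (x axis, progenitor minus hESC mean of log2(intensity + 16), 3 arrays per group) of each HOXB probe set (y axis, in cluster order), with bars for the 95% interval from limma. The 14 red points, from 0.81 for HOXB13 to 6.77 for HOXB2, passed the threshold, and the 5 grey points lie between -0.041 and 0.17.

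Since most hESC values lay under the yardstick, the order of the changes is that of 1 scale. At each of the pseudocounts 1, 16 and 64, HOXB2 led, and the brightest probe sets of HOXB6, HOXB9, HOXB8 and HOXB3 lay above those of the other genes. Further order moved with the pseudocount. HOXB7 on 204778_x_at passed HOXB5 on 205601_s_at at 1 (4.14 against 3.91). At 64, HOXB3 passed HOXB8 (3.31 against 3.18) and HOXB5 on 205600_x_at passed HOXB4 (1.65 against 1.35). Over the brightest probe sets of the 10 genes, Spearman's rho between change and cluster order was 0.055 at a pseudocount of 16, as a description, and these points share the same 6 arrays. HOXB2, with the largest change, lies next to HOXB1, which did not pass.

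Of the 19 probe sets, 11 exceeded the olfactory receptor yardstick on all 3 progenitor arrays. Of these 9 did so on no hESC array, and the other 2 were those of HOXB5. A further 2, of HOXB6 and HOXB9, exceeded it on 1 or 2 progenitor arrays, and 6 on no array. The ratio of the progenitor mean to the hESC yardstick was 52.8 for HOXB6, 26.9 for HOXB9, 21.4 for HOXB3, 17.1 for HOXB8 and 3.67 for HOXB4, on the brightest probe set of each. For HOXB7 it lay between 4.64 and 7.77. Levels of different probe sets cannot be ranked against each other, so these ratios describe each gene's own distance from dim signal.

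The sizes of the changes depended on the pseudocount, because hESC values were low. HOXB2 rose by 9.02 at a pseudocount of 1 and by 4.99 at 64, and HOXB4 by 3.77 and 1.35. The same 14 probe sets passed at each of these settings.

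**Figure D3:**
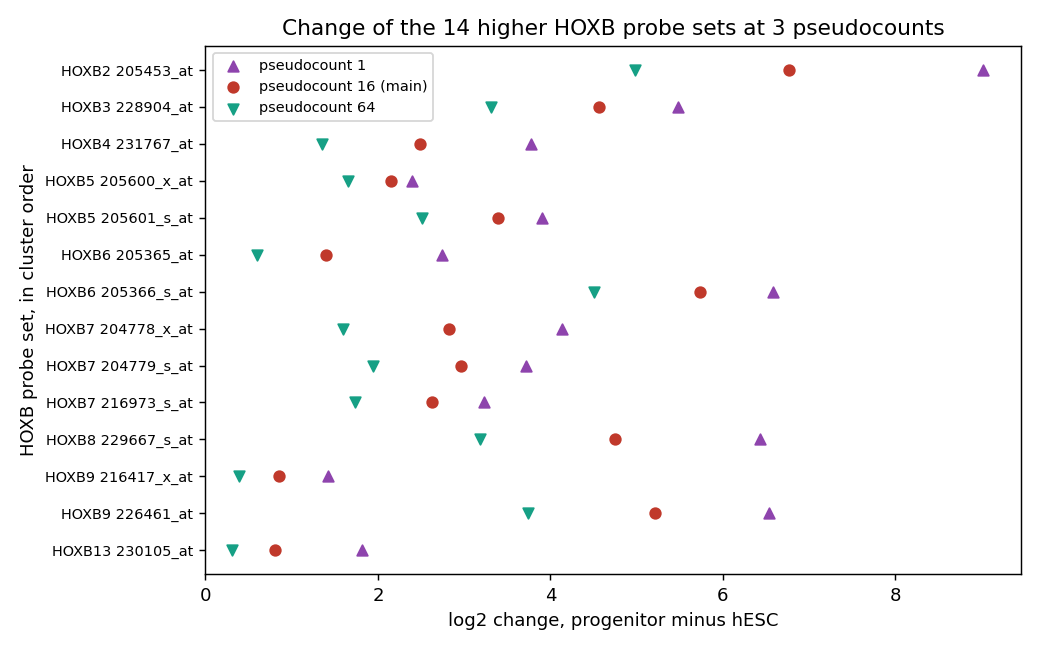
Log2 change (x axis) of the 14 HOXB probe sets that passed the threshold (y axis, in cluster order) at pseudocounts of 1, 16 and 64, 1 symbol per setting. Every symbol lies above 0, and HOXB2 ranges from 4.99 to 9.02.

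The progenitor arrays differed among themselves. Of the 14 probe sets 11 were highest on progenitor array 1 and 2, those of HOXB6, were lowest there. The widest gap was that of HOXB7 on 204779_s_at, 0.66 in log2 level above the mean of the other progenitor arrays. The summed intensity of the 6 endothelial markers stood at 4367 on that array, at 1379 and 1478 on the others and at 596 to 640 in hESC. Other sums were higher there too. The 5 endoderm markers summed to 1211 against 556 and 535.5 (hESC 342 to 395). The 5 neural and neural crest markers summed to 134 against 81.1 and 69.6 (hESC 51.5 to 65.2). Of these endoderm and neural or neural crest markers FOXA2, SOX1 and ZIC1 were lowest on progenitor array 1, and the others were highest there. The stem cell factor SOX2 was at 640 against 329 and 337, and at 4620 to 5284 in hESC. HHEX, a factor of endoderm and of early vessels, was at 626, 91.7 and 102, and made up most of the difference in the endoderm sum. CDH5 (VE-cadherin) was at 1012, 102 and 121 on the progenitor arrays. TIE1 and PECAM1, which define vessel cells too, were at 106, 21.9 and 22.9 and at 49.6, 42.6 and 51.5, against 33.5 to 66.4 and 47.9 to 58.7 in hESC. Without progenitor array 1 all 14 probe sets still passed, with HOXB7 on 204779_s_at at 2.72 and HOXB2 at 6.69. In hESC, 9 of the 14 were highest on array 2, where HOXB4 was at 17.3. Without that array HOXB4 rose by 2.67.

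Other transcripts lie inside the same stretch, and those analysed were higher as well. HOXB-AS2, HOXB-AS4 and PRAC2, listed there in RefSeq, were not analysed here. The 9 probe sets annotated to HOXB-AS1, HOXB-AS3, MIR10A or PRAC1 were all higher in the progenitors (background 20.3%). HOXB-AS1, a noncoding RNA that overlaps HOXB2 and HOXB3 in RefSeq, was at 261, 234 and 236 in the progenitors and at 7.34, 11.5 and 8.92 in hESC on 244512_at, a log2 change of 3.37 (SE 0.09, adjusted p = 1.098e-06). On 237189_at it changed by 2.41. HOXB-AS3, which overlaps HOXB5 and HOXB6, had 5 probe sets with changes from 0.47 (240151_at) to 2.48 (236892_s_at). Among these, 230743_at and 240151_at stayed below the yardstick on every array. The strand of the probes is not given in the sources used here, so that signals of a sense and an antisense transcript on these probe sets cannot be told apart. PRAC1, a small nuclear protein of prostate and colon that lies between HOXB9 and HOXB13, was at 140, 126 and 131 against 8.96, 8.20 and 11.1, a change of 2.57 (SE 0.09, adjusted p = 2.813e-06).

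The probe set 232979_at, annotated to the microRNA gene MIR10A, was at 38.4, 41.2 and 35.6 in the progenitors and at 4.25, 2.62 and 5.11 in hESC, a log2 change of 1.51 (SE 0.09, adjusted p = 2.942e-05). All progenitor arrays lay above all hESC arrays, close to the yardstick. Such a probe set reads a long transcript over the locus and not the mature microRNA, whose level was not measured. The mature arms lie within the HOXB3 gene in RefSeq, at chr17:48579904-48579926 and chr17:48579864-48579885 on the minus strand. They are shown because the microRNA is a product of the cluster, with the seed, bases 2 to 8, in capitals.

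hsa-miR-10a-5p: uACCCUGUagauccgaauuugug
hsa-miR-10a-3p: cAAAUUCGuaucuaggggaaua

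Outside the cluster the picture was mixed. Of 21 flanking genes measured between SP6 and PHB1, 7 were higher, 5 lower and 9 did not pass, with a median change of 0.028, where 25.3% of all genes were higher and 20% lower on their brightest probe set. Over all 24 listed neighbours, with HOXB-AS1, HOXB-AS3 and PRAC1, 10 were higher and 5 lower, and scaling on hybridization controls made these counts 14 and 2. The nearest measured gene of the list before HOXB1 was SKAP1, an adaptor of T-cell receptor signalling, at 27.6, 24.5 and 27.9 in the progenitors and 37.7, 32.7 and 30.8 in hESC (change -0.11, adjusted p = 0.392). The nearest after HOXB13 was TTLL6, a tubulin-modifying enzyme, at 5.40, 5.41 and 3.99 against 18.1, 13.1 and 22.8, which fell by 0.64 (SE 0.13, adjusted p = 0.006383). Beyond it, CALCOCO2, an autophagy receptor, rose by 1.37, and the zinc finger gene SP6, at the far end of the list, rose by 3.86. The other flanking genes changed by -0.68 to 0.81.

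**Figure D4:**
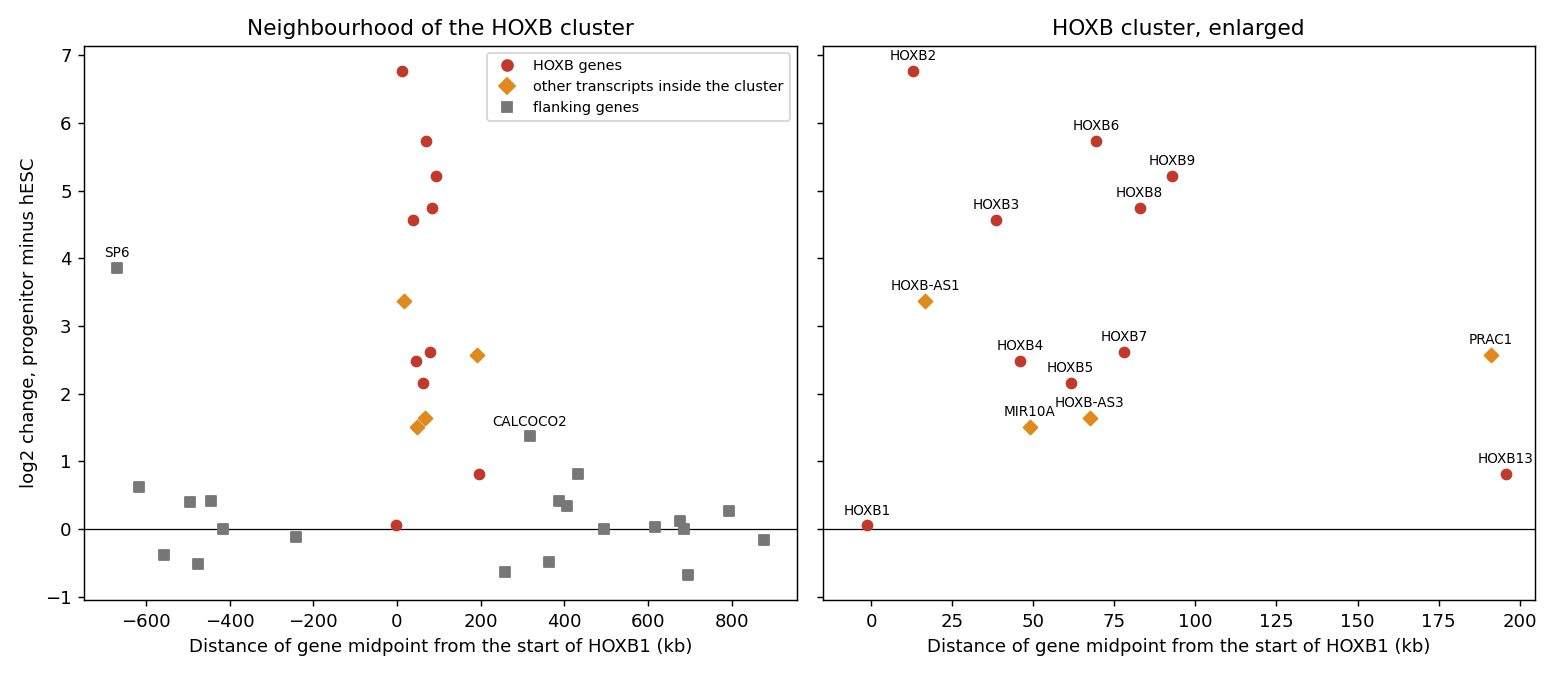
Log2 change (y axis, progenitor minus hESC, brightest probe set of each gene) against the distance of the gene's midpoint from the start of HOXB1 (x axis, kb), for HOXB genes, other transcripts inside the cluster and flanking genes, with the cluster enlarged in the second panel. HOXB1 sits at 0.052 beside HOXB2 at 6.77, and apart from SP6 (3.86) and CALCOCO2 (1.37) the flanking genes lie between -0.68 and 0.81.

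In the other HOX clusters the share of higher genes was 27.8%, near that of all genes. Of 18 HOXA, HOXC and HOXD genes with a probe set of their own, 5 were higher, 0 lower and 13 did not pass, with a median change of 0.037. At an unadjusted p under 0.05 the counts were 6 and 0, against 5793 higher and 4567 lower of 19775 genes. The background of adjusted calls was 25.3% higher and 20% lower. None of the 18 reached an 8-fold change on the log2(intensity + 16) scale, which understates changes of dim probe sets. Of all 19775 genes only 269 rose that far, so a count of 0 among 18 says little. The largest increases were those of HOXD11 (1.28), HOXD13 (0.58) and HOXC12 (0.48). HOXC12 stayed below the olfactory receptor yardstick on every array, and HOXD11 and HOXD13 exceeded it on progenitor array 1 alone. HOXD11 was at 37.3, 20.3 and 19.2 in the progenitors and at 1.51, 1.23 and 1.34 in hESC, and its mean intensities stood in a ratio of 18.8. HOXC6 varied widely in both groups, at 96.8, 35.3 and 35.2 in the progenitors and at 94.4, 205.4 and 35.6 in hESC. It did not pass (-0.66). Only 1 HOXA gene, HOXA2, is among the 18 (0.26, adjusted p = 0.096), and the other HOXA genes are not analysed here. A difference between the clusters was not tested.

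**Figure D5:**
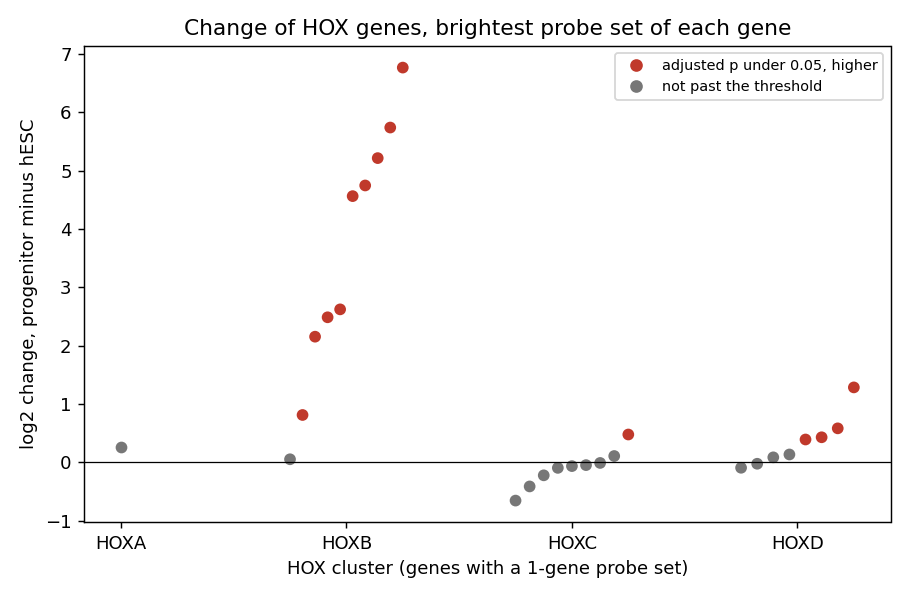
Log2 change (y axis, progenitor minus hESC) of the brightest probe set of each HOX gene analysed, sorted within each cluster (x axis), with HOXA2 alone for the HOXA cluster. HOXB genes range from 0.052 to 6.77, whereas the 18 others lie between -0.66 and 1.28.

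HOX proteins bind DNA together with TALE factors of the PBX, MEIS and PKNOX families. Among 8 such cofactors 6 rose and 1 fell, while 1 missed the threshold, with a median change of 1.56, where 25.3% of all genes were higher and 20% lower. MEIS2 rose by 5.36 (SE 0.12), from intensities of 16.8 to 17.9 in hESC to 1146 to 1542 in the progenitors. MEIS1 rose by 4.30 (SE 0.10) and PKNOX2 by 2.72 (SE 0.09). PBX4 was the member that fell, by 1.90 (SE 0.22).

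Genes that act upstream of the cluster were higher in part. Among 13 genes, 8 rose and 0 fell, while 5 missed the threshold, with a median change of 0.56 and the same background. At an unadjusted p under 0.05 the counts were 9 and 0, against 5793 higher and 4567 lower of 19775 genes. The largest increases were in the retinoic acid receptor RARB, by 2.61 (SE 0.12), the caudal factor CDX2, by 1.86 (SE 0.10), and the retinoic acid synthesis enzyme ALDH1A2, by 1.62 (SE 0.18). CDX2 was at 45.9, 54.0 and 48.1 in the progenitors and at 1.33, 3.18 and 3.56 in hESC. ALDH1A2 was at 66.8, 37.8 and 37.7 against 3.05, 4.88 and 7.35, close to the olfactory receptor yardstick on progenitor arrays 2 and 3. Of 17 chromatin regulators of HOX genes 4 rose, 6 fell and 7 did not pass, beside a background of 25.3% higher and 20% lower, with a median of -0.040. This balance turned under scaling on hybridization controls, where 9 rose and 1 fell. KDM6B, which removes the Polycomb mark H3K27me3, rose by 2.48 (SE 0.09) and ASH2L, of the complexes that set the active mark, by 1.51. KMT2A (MLL), a trithorax protein that keeps HOX genes on, fell by 1.17 (SE 0.18).

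The genes most like the HOXB genes over the 6 arrays were sought by Pearson's r with the mean log2 profile of the 10 brightest HOXB probe sets. With only 2 groups such values are dominated by the group difference, and 815 of 19740 genes outside the HOX clusters had r above 0.99. The 5 highest were TMEM106B, CDK6, APLF, SH3PXD2A and HOPX, with r from 0.9996 to 0.9998 and log2 changes from 0.82 to 5.52.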

How the data were processed

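Biotinylated cRNA of 6 samples was hybridised to arrays of 1 colour, per the labels' protocols. The authors deposited an intensity on a linear scale for each of 54675 probe sets. How probes were summarised, corrected for background and scaled is not given in the sources used here. A value of exactly 1 made up 2.15% of the table and 19 values lay below it, so that differences between the lowest levels may be lost.

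Intensities were converted to log2(intensity + 16) and quantile-normalized, since array medians spanned 0.15 on this scale. The 62 array controls were left out, and the other 54613 probe sets entered limma 3.58.1 (R 4.3.3; lmFit, eBayes), two-sided, with Benjamini-Hochberg adjustment over all of them. Groups came from the sample titles. Genes were named from probe sets with 1 annotated gene, with symbols updated through RefSeq identifiers. A gene in a list is represented by its probe set with the highest mean. Precision is limited by the 3 arrays per group. Text names every HOXB probe set, and of each list the 3 largest changes, the largest opposite one and, for neighbours, any member. Those named beyond this rule (HOXA2, HOXC6 and single markers) were chosen after their values were seen. The members and lists were chosen with earlier results of these data known.

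On simulated data for this comparison, with 54613 probe sets of which 50 each had a known change, recovery was 6% for a log2 change of 0.5, 68% for 1, 94% for 2 and 100% for 4. Of 54413 unchanged ones 5 were called. Far fewer probe sets changed there than the 40.2% that passed in the data, which makes the adjusted threshold stricter. The noise was drawn independently for each value, without array effects. So these rates describe the simulated setting and not the recovery in the real comparison. Alternatives covered pseudocounts, scaling, filters, variance models, the unit tested, pairing and each array left out. Same-numbered arrays did not deviate together (r = -0.026, 0.055 and -0.056). The closest arrays were progenitor 2 and 3, with 39 probe sets over 2-fold apart against 205 to 937 for other pairs within a group. They were kept as 2 arrays. Plots used matplotlib 3.10.9 (Python 3.11.15).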

Additional observations from a re-analysis of the deposited data

How the results depend on the processing

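The count of 14 higher HOXB probe sets held at both other pseudocounts, under 3 other scalings, with another variance model, with array weights and without each array in turn (14 to 14). It held with progenitor arrays 2 and 3 averaged into 1. Without the dimmest 30% of probe sets it was 13 of 14 tested, where 28.4% of all probe sets left were higher. Without the dimmest 50% it was 11 of 11, where 33.3% were. Both filters kept HOXB2 on 205453_at, whose mean was at percentile 8.3 of all probe sets in hESC and 96.8 in the progenitors. They thus keep probe sets that are bright in the progenitors alone and drop those dim in both groups. The shares under these filters therefore add no separate support. With 1 probe set per gene 9 of 10 HOXB genes and 9463 of 19775 genes passed, since fewer features were tested. The 14 kept their direction and call wherever they were tested. With the replicate number as a block, 14 HOXB probe sets and 20244 of all passed, so the block changed no HOXB call. Without each array the count over all probe sets ranged from 17839 to 22169. Scaling on hybridization controls moved the median change of all probe sets to 0.21 and put 76.3% of calls in the higher direction, against 50.4%.

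Signs turned only for probe sets that did not pass under any setting. HOXB1 on 208224_at was at 0.057 with median centring and 0.0051 with scaling on hybridization controls, and between -0.087 (without progenitor array 1) and 0.024 (without hESC array 2) with 1 array left out. HOXB1 on 243811_at was at -0.0027 without normalization, and between -0.022 (without progenitor array 1) and 0.14 (without progenitor array 3) with 1 array left out. It was at -0.014 without hESC array 1. HOXB13 on 209844_at was at 0.077 with median centring and 0.0035 with hybridization controls. The cause was not tested. The low signal of hESC limits how well the folds are known.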
